A study of Rattus norvegicus with 23 samples.

Results

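The miR-106b, miR-93 and miR-25 cluster is a group of 3 microRNA hairpins that lie next to each other within the gene Mcm7, which encodes a subunit of the helicase that opens DNA for replication. Its members here were chosen by name: every entry of the sRNAbench count table called miR-106b, miR-93 or miR-25, either arm. That rule found 6 of the 413 entries, namely rno-miR-106b-5p, rno-miR-106b-3p, rno-miR-93-5p, rno-miR-93-3p, rno-miR-25-5p and rno-miR-25-3p. All 6 passed the filter on low counts, as did 269 of the 413 entries.

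The libraries came from PC12, a line derived from a rat pheochromocytoma, a tumour of adrenal chromaffin cells. In one line the cells stably carried α1ACT with 11 glutamines and a C-terminal 3xFlag tag. This protein is a transcription factor encoded within the CACNA1A message, which also codes for a calcium channel subunit. The other line carried blank pcDNA3, and G418 was used to select both. The α1ACT line had 3 small RNA libraries at each of 6 h, 24 h, 3 d and 10 d after the cells were split. The vector line had 2 libraries at 6 h and 3 at each later time, which makes 23 libraries. How many stable clones stand behind each line is not given, so a line difference cannot be told apart from a difference between clones. Nothing in the labels says that replicates were grown separately, so the p-values reflect only the spread among these libraries, which could be technical. These small RNA libraries do not measure α1ACT itself.

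Each hairpin of the cluster is cut from 1 primary transcript by Drosha and then by Dicer, which leaves a duplex of a 5p and a 3p arm, of which 1 is usually kept by Argonaute. The cluster is a paralogue of the miR-17-92 cluster and, in human cells, is transcribed with MCM7 under E2F1. Bases 2 to 8 of a mature microRNA, the seed, pair with target messages. In human cells the 5p arms of miR-106b and miR-93 repress the cell cycle inhibitor CDKN1A (p21), and miR-25-3p represses the pro-apoptotic protein BIM. In mouse the cluster is known for promoting the proliferation of neural stem and progenitor cells.

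The 6 mature sequences are shown because they set which arms share targets and which relatives the counting could confuse with them. They are from RefSeq (GRCr8), 5′ to 3′, with the seed in capitals.
rno-miR-106b-5p: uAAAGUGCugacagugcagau
rno-miR-106b-3p: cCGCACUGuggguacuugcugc
rno-miR-93-5p: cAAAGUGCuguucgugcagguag
rno-miR-93-3p: aCUGCUGAgcuagcacuucccga
rno-miR-25-5p: aGGCGGAGacacgggcaauugc
rno-miR-25-3p: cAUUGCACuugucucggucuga
The 5p arms of miR-106b and miR-93 share a seed and are identical at 16 of 21 positions when laid side by side from the first base. Their 3p arms share no seed, and the seed of miR-25-3p differs from both.

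Relatives outside the cluster carry the same 2 seeds. The more abundant ones are shown for comparison, again with the seed in capitals.
rno-miR-17-5p: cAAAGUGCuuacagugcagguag
rno-miR-20a-5p: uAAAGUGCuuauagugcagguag
rno-miR-92a-3p: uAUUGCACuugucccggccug
rno-miR-92b-3p: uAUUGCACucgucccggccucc
From the first base, miR-17-5p matched miR-93-5p at 19 of 23 positions and miR-106b-5p at 18 of 21, and miR-92a-3p matched miR-25-3p at 18 of 21. No pair of these sequences is identical, but reads shortened at the 3′ end are harder to tell apart, and the sources used here do not give the mismatches allowed in counting.

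In GRCr8 the hairpins lie on the minus strand of chromosome 12 in the order Mir106b, Mir93, Mir25, over 494 bases, with 122 and 119 bases between neighbours. All 3 lie inside the interval of Mcm7, and their position against its exons was not used here. The hairpins of Mir93 and Mir25 show how both arms come from 1 stem, with the mature arms in capitals. Mir93 spans chr12:22156844-22156930 and Mir25 spans chr12:22156641-22156724, both on the minus strand.
Mir93: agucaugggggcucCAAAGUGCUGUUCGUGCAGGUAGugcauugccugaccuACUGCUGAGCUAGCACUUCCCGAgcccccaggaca
Mir25: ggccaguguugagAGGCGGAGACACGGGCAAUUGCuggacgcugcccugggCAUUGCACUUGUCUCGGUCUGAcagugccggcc

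Library totals ran from 448557 to 5070120 counts, and the cluster took between 1.19% and 1.72% of them. The neuroendocrine miR-375-3p was abundant, and it made up nearly all of the summed PC12 markers, at 112000 to 180000 CPM in the α1ACT line and 131000 to 191000 CPM in the vector line. Of the other 4 listed markers, miR-7b-5p had no entry, miR-9a-5p reached at most 50.6 CPM, miR-7a-5p 12.9 CPM and miR-124-3p 1.09 CPM, the last 2 with 0 counts in some library. Markers of blood summed to at most 10.7 CPM in the α1ACT line and 8.53 CPM in the vector line, and the 1 muscle marker with an entry reached 0.383 CPM in the α1ACT line and 0 CPM in the vector line. Endothelial markers summed to 75 to 122 CPM in the α1ACT line and 88.3 to 143 CPM in the vector line. The 3 of 4 mesenchymal markers with an entry summed to 303 to 786 CPM in the α1ACT line and 399 to 1320 CPM in the vector line. Nearly all of that sum was miR-143-3p, which reached 1310 CPM. Of the others, miR-199a-3p reached at most 17.9 CPM and miR-145-5p 0.896 CPM, the latter with 0 counts in some library, and miR-214-3p had no entry. The part of all these markers in the line differences given here was not tested. Table columns named WT were taken as the α1ACT line and those named control as the vector line, an assumption that rests on the normal length of the repeat. The 2 deposited tables disagree on a pair of vector columns. By their counts, vector 6 h replicate 2 and vector 10 d replicate 2 of one table match each other's name in the other, while the other 21 libraries match their own. The naming in the sRNAbench table was used throughout, and where exchanging or leaving out the columns ended a call of a cluster arm, that value is given. Leaving out both columns leaves 1 vector library at 6 h, so vector values against 6 h then rest on that library.

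The arms of the cluster differed widely in level. Levels are CPM, counts relative to the library total after scaling by the trimmed mean of M values (TMM), and each mature microRNA is a single short molecule, so no length correction enters. With a mean of 7431 CPM over the 23 libraries, miR-25-3p ranked 21st of the 413 entries, between miR-186-5p (7432 CPM) and miR-30c-5p (6234 CPM). Next came miR-93-5p, 25th at 5247 CPM, between let-7g-5p (5313 CPM) and let-7b-5p (4834 CPM). The arms of miR-106b stood close together, at 611 CPM for the 5p arm (77th) and 484 CPM for the 3p arm (81st). The passenger arms were scarce, at 23.8 CPM for miR-93-3p (177th, 4 to 98 counts a library) and 16.8 CPM for miR-25-5p (198th, 14 to 73 counts a library). So the hairpins of miR-93 and miR-25 each left 1 dominant arm, on opposite sides, while that of miR-106b left both. Levels of different microRNAs also carry the ligation and PCR preferences of the small RNA protocol, so their order is that of reads.

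**Figure D1:**
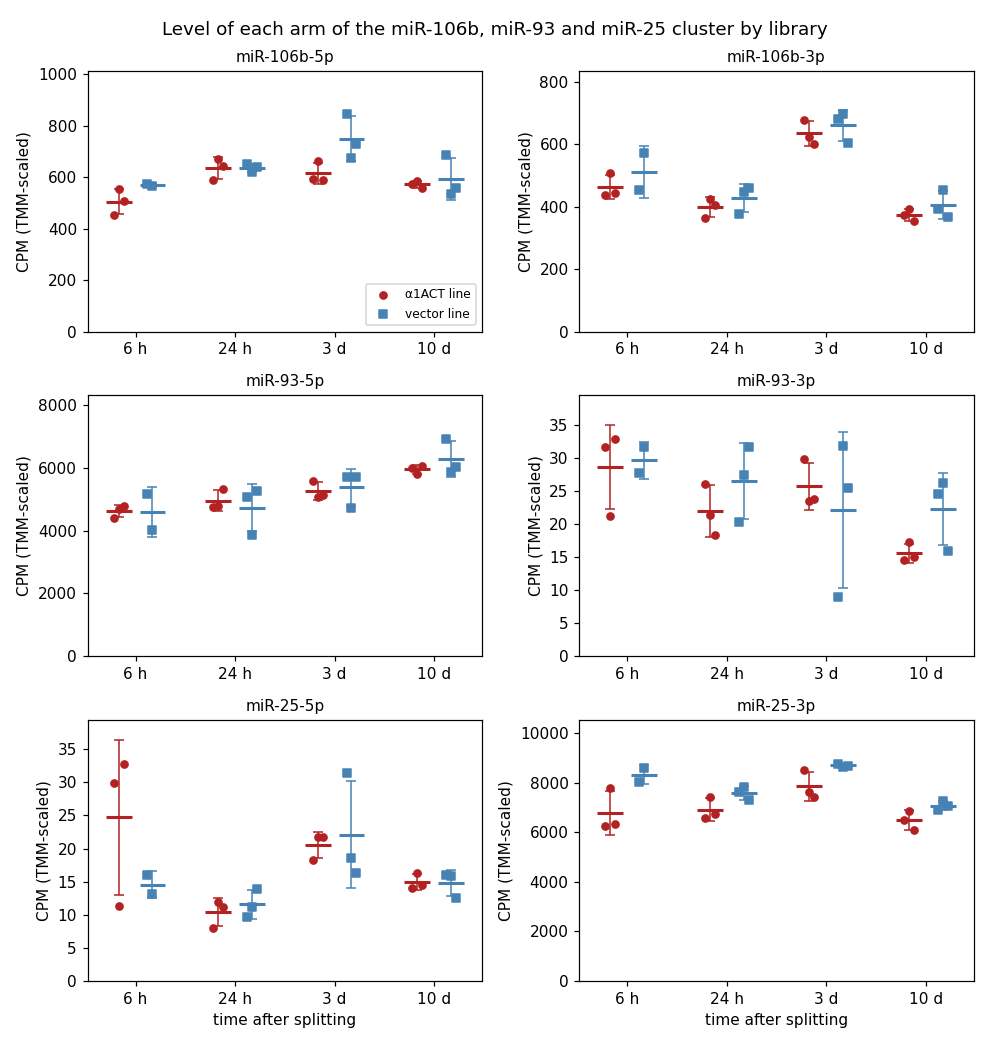
CPM (TMM-scaled) of each of the 6 arms by time after splitting, with each library as a point (α1ACT circles, left; vector squares, right), the group mean as a bar and ±1 SD as whiskers (n = 3, vector 6 h n = 2). The 3 d libraries of miR-106b-3p stand above the other times in both lines, and the 10 d libraries of miR-93-5p do so too. With the doubtful vector pair exchanged, the vector 10 d libraries of miR-93-5p would not.

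Of the 6 arms, miR-106b-3p moved most clearly with time, and it peaked at 3 d in both lines. Its α1ACT libraries held 438, 509 and 443 CPM at 6 h, 363.2, 425.9 and 405.4 CPM at 24 h, 680, 626 and 602 CPM at 3 d, and 374.5, 391.7 and 355.1 CPM at 10 d. Vector libraries held 453 and 572 CPM at 6 h, 376, 446 and 461 CPM at 24 h, 682, 697 and 604 CPM at 3 d, and 395, 455 and 369 CPM at 10 d. Every 3 d library was above every library of the other times in its line, and the 24 h and 10 d libraries overlapped in both lines. In small RNA pooled from a culture, more of a microRNA per cell and more cells that hold it cannot be told apart.

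Differences between times were read from 1 fit of edgeR's quasi-likelihood test to all 269 tested entries, and an entry counts as called at an adjusted p (Benjamini-Hochberg) under 0.05. At 3 d minus 24 h the log2 fold change of miR-106b-3p was +0.68 ± 0.11 (SE) in the α1ACT line (adjusted p = 0.000123) and +0.63 ± 0.12 in the vector line (adjusted p = 0.000238, edgeR). At 10 d minus 3 d it was −0.77 ± 0.11 in the α1ACT line (adjusted p = 1.08e-05) and −0.70 ± 0.12 in the vector line (adjusted p = 5.24e-05, edgeR). With the pair of vector columns exchanged, the vector value at 10 d minus 3 d was −0.57 (adjusted p = 0.00756), and with both left out −0.83 (adjusted p = 3.61e-05). Both steps were called in both lines under each of the 35 alternatives run. For miR-106b-3p over the 4 times the F test gave adjusted p = 1.07e-05 in the α1ACT line and 7.81e-05 in the vector line. The ends of the course differed less: 10 d minus 6 h was −0.31 ± 0.11 in the α1ACT line (adjusted p = 0.0437, edgeR) and −0.34 ± 0.13 in the vector line (adjusted p = 0.0781). That α1ACT call was lost without any 1 of 11 libraries, which were α1ACT 6 h replicates 1 and 2, 24 h replicate 2, 3 d replicate 2 and 10 d replicates 1, 2 and 3, and vector 24 h replicates 1 and 2 and 10 d replicates 1 and 3 (−0.35 to −0.24, adjusted p = 0.0511 to 0.169), and also with the vector pair exchanged (−0.31, adjusted p = 0.109). The vector value was −0.03 with that pair exchanged (adjusted p = 0.993, edgeR).

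The 5p arm of the same hairpin did not follow that course in the α1ACT line, and in the vector line it too was highest at 3 d. In α1ACT libraries miR-106b-5p stood at 454, 554 and 507 CPM at 6 h, 588, 672 and 646 CPM at 24 h, 595, 662 and 590 CPM at 3 d, and 573, 587 and 557 CPM at 10 d. Vector libraries stood at 575 and 565 CPM at 6 h, 650, 620 and 638 CPM at 24 h, 845, 675 and 729 CPM at 3 d, and 685, 533 and 559 CPM at 10 d. All α1ACT libraries of 6 h were below all later ones, while the vector line was highest at 3 d, with 1 library of 10 d inside the range of 3 d. By edgeR the α1ACT line was higher at 24 h than at 6 h, by +0.33 ± 0.11 on the log2 scale (adjusted p = 0.048), against +0.16 ± 0.12 in the vector line (adjusted p = 0.67). At 10 d minus 3 d the α1ACT line had −0.11 ± 0.11 (adjusted p = 0.458) and the vector line −0.33 ± 0.11 (adjusted p = 0.0252, edgeR). The α1ACT call at 24 h was kept without α1ACT 6 h replicate 2, α1ACT 24 h replicate 1, vector 3 d replicate 1 or 2, or vector 10 d replicate 1, and was lost without any 1 of the other 18 libraries (+0.25 to +0.33, adjusted p = 0.0508 to 0.263). It was also lost with the vector pair exchanged (+0.33, adjusted p = 0.0791) or left out (+0.29, adjusted p = 0.0758), with the Chimira counts (+0.31, adjusted p = 0.0873, or 0.0523 with its pair exchanged), and with RLE factors (adjusted p = 0.0608), upper-quartile factors (adjusted p = 0.092) or no filter (adjusted p = 0.0771). The vector call at 10 d was lost with the vector pair exchanged (−0.31, adjusted p = 0.0626) or left out (−0.30, adjusted p = 0.0697), and without vector 3 d replicate 1 or vector 10 d replicate 3 (adjusted p = 0.0708 to 0.122). With upper-quartile factors the vector value was −0.10 (adjusted p = 0.532).

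Levels of miR-93-5p were highest at 10 d. Its α1ACT libraries held 4402, 4700 and 4773 CPM at 6 h, 4761, 4773 and 5329 CPM at 24 h, 5587, 5070 and 5122 CPM at 3 d, and 6001, 5795 and 6058 CPM at 10 d. Vector libraries held 5159 and 4022 CPM at 6 h, 5058, 3864 and 5274 CPM at 24 h, 5701, 4708 and 5710 CPM at 3 d, and 6917, 5871 and 6028 CPM at 10 d. All 10 d libraries were above all earlier ones in each line, and the ranges of the 3 earlier times overlapped in the vector line. With the vector pair exchanged, the library at 4022 CPM falls at 10 d, and that separation is lost in the vector line. By edgeR 10 d minus 3 d was +0.18 ± 0.11 in the α1ACT line (adjusted p = 0.22) and +0.22 ± 0.11 in the vector line (adjusted p = 0.137). At 10 d miR-93-5p was higher than at 6 h by +0.36 ± 0.11 (log2) in the α1ACT line (adjusted p = 0.0188) and by +0.45 ± 0.13 in the vector line (adjusted p = 0.0188, edgeR). The vector difference rests on the pair of doubtful columns: it was +0.04 with them exchanged (adjusted p = 0.993, edgeR). With both left out it was +0.20, against the 1 vector library then left at 6 h. In the other table under its own names it was −0.04 (adjusted p = 0.996, edgeR). With that table's pair exchanged, so that both tables use the same names, it gave +0.43 (adjusted p = 0.0174). Without vector 6 h replicate 2 alone, again against 1 vector library at 6 h, the vector value was +0.21. The α1ACT call was lost without α1ACT 6 h replicate 1 or 3 or α1ACT 10 d replicate 3, though the value stayed between +0.32 and +0.33, and with the vector pair exchanged (+0.36, adjusted p = 0.0765).

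Its partner arm went the other way in the α1ACT line. There miR-93-3p stood at 31.6, 21.2 and 32.8 CPM at 6 h, 26.1, 21.3 and 18.4 CPM at 24 h, 29.8, 23.4 and 23.8 CPM at 3 d, and 14.6, 17.2 and 14.9 CPM at 10 d. Vector libraries of miR-93-3p stood at 27.6 and 31.5 CPM at 6 h, 20.3, 27.4 and 31.6 CPM at 24 h, 8.97, 31.7 and 25.4 CPM at 3 d, and 24.6, 26.2 and 16.0 CPM at 10 d. The α1ACT libraries of 10 d were below all others of that line, while the vector times overlapped. The vector value of 8.97 CPM rests on 4 counts in the shallowest library. The α1ACT line fell at 10 d, with a log2 fold change of −0.87 ± 0.27 against 6 h (adjusted p = 0.0188) and of −0.72 ± 0.27 against 3 d (adjusted p = 0.044, edgeR). The difference from 3 d was not called without any 1 of 12 libraries, among them all α1ACT libraries of 3 d and 10 d (−0.79 to −0.60, adjusted p = 0.0501 to 0.146), nor with the vector pair exchanged (−0.72, adjusted p = 0.067), upper-quartile factors (−0.61, adjusted p = 0.0994) or no filter (−0.69, adjusted p = 0.0607). In the vector line 10 d minus 6 h was −0.41 ± 0.30 (adjusted p = 0.411), and −0.17 with the pair exchanged (adjusted p = 0.993). The α1ACT call against 6 h was lost without α1ACT 6 h replicate 1 or 3 or α1ACT 10 d replicate 1 or 3 (−0.88 to −0.80, adjusted p = 0.0553 to 0.0775).

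Of the cluster, miR-25-3p was the most abundant arm. Its α1ACT libraries held 6241, 7786 and 6318 CPM at 6 h, 6585, 7445 and 6730 CPM at 24 h, 8508, 7647 and 7413 CPM at 3 d, and 6513, 6882 and 6082 CPM at 10 d. Vector libraries held 8050 and 8607 CPM at 6 h, 7638, 7826 and 7296 CPM at 24 h, 8779, 8654 and 8697 CPM at 3 d, and 6896, 7256 and 7064 CPM at 10 d. Both lines had their highest mean at 3 d and their lowest at 10 d. At 10 d miR-25-3p was lower than at 3 d in both, with log2 fold changes of −0.28 ± 0.09 in the α1ACT line (adjusted p = 0.0272) and −0.30 ± 0.09 in the vector line (adjusted p = 0.0189, edgeR). For miR-106b-3p the same contrast gave −0.77 and −0.70, and the difference between the arms was not tested. With the vector pair exchanged the vector value was −0.21 (adjusted p = 0.179), and with both left out it was −0.36 (adjusted p = 0.0182). The α1ACT call was lost without α1ACT 3 d replicate 1, α1ACT 10 d replicate 1 or 3, or vector 6 h replicate 1 or 2 (−0.28 to −0.21, adjusted p = 0.0688 to 0.13), and the vector call without vector 10 d replicate 1 (−0.30, adjusted p = 0.0522). Upper-quartile factors ended both calls (−0.16 in the α1ACT line, adjusted p = 0.167, and −0.07 in the vector line, adjusted p = 0.578), as did the Chimira counts (−0.22 in the α1ACT line, adjusted p = 0.122, and −0.23 in the vector line, adjusted p = 0.143). The α1ACT call was also lost with the vector pair exchanged (adjusted p = 0.059), with that pair exchanged in the Chimira counts (−0.22, adjusted p = 0.0767) and with no filter (−0.25, adjusted p = 0.0999).

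Its passenger arm was scarce, and its α1ACT libraries of 6 h disagreed. There miR-25-5p stood at 29.9, 11.3 and 32.8 CPM at 6 h, 7.98, 11.9 and 11.2 CPM at 24 h, 18.2, 21.7 and 21.8 CPM at 3 d, and 14.0, 16.3 and 14.4 CPM at 10 d. Vector libraries stood at 16.0 and 13.1 CPM at 6 h, 9.62, 11.2 and 13.8 CPM at 24 h, 31.4, 18.6 and 16.3 CPM at 3 d, and 16.0, 15.8 and 12.5 CPM at 10 d. Replicate 2 of the α1ACT line at 6 h, at 11.3 CPM, lay within the range of 24 h, and replicates 1 and 3 lay above every other α1ACT library. By edgeR the α1ACT line fell at 24 h against 6 h (−1.26 ± 0.30 on the log2 scale, adjusted p = 0.00474) and rose at 3 d against 24 h (+1.00 ± 0.30, adjusted p = 0.0178). The vector line had −0.35 ± 0.34 at 24 h against 6 h (adjusted p = 0.727) and +0.83 ± 0.32 at 3 d against 24 h (adjusted p = 0.0601). The rise at 3 d was not called without α1ACT 24 h replicate 1 or 3 d replicate 3 (+0.83 to +0.96, adjusted p = 0.0538 to 0.12) or with upper-quartile factors (+0.87, adjusted p = 0.0513). Without α1ACT 6 h replicate 2, 10 d minus 6 h in the α1ACT line was −1.07 (adjusted p = 0.00285), and with it −0.73 ± 0.29 (adjusted p = 0.0658).

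The number of arms that changed with time is given here beside the share of all tested entries that did. Between 10 d and 6 h, 3 of the 6 arms were called in the α1ACT line, where 27.1% of all entries were, and 1 of 6 in the vector line, where 11.9% were. With the vector pair exchanged these were 1 in the α1ACT line and 0 in the vector line. For 24 h against 6 h the counts were 2 in the α1ACT line (10.4% of all entries) and 0 in the vector line (1.12%). By edgeR 1 of the 6 had an unadjusted p under 0.05 there, and DESeq2 and limma-voom called 0. For 3 d against 24 h they were 2 in the α1ACT line (22.3%) and 1 in the vector line (23.8%), and for 10 d against 3 d 3 in the α1ACT line (32.7%) and 3 in the vector line (25.3%). The F test over the 4 times called 2 arms in the α1ACT line (42.4%) and 3 in the vector line (36.8%). Over all alternatives the F test called 2 to 6 arms in the α1ACT line and 1 to 4 in the vector line. With the pair exchanged the vector line kept 1, miR-106b-3p, and lost miR-93-5p (adjusted p = 0.583) and miR-106b-5p (adjusted p = 0.0594, edgeR). With both left out these were also lost, miR-93-5p at adjusted p = 0.0648 and miR-106b-5p at adjusted p = 0.15. Neighbouring steps share the libraries of the time between them.

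The main question of the study was which microRNAs differ between the α1ACT line and the vector line. Over the 4 times miR-25-3p was lower in the α1ACT line, at 7013 ± 742 CPM against 7887 ± 711 CPM in the vector line (SD, n = 12 and 11). The mean of its 4 log2 fold changes was −0.18 ± 0.05 (adjusted p = 0.0195, edgeR), a fold of 0.886. It was the only arm of the 6 that was called, where 12.6% of all tested entries were. At single times the value was −0.30 ± 0.11 (6 h), −0.13 ± 0.09 (24 h), −0.15 ± 0.09 (3 d) and −0.12 ± 0.09 (10 d), none of them called. Libraries of the lines did not overlap at 6 h, 3 d and 10 d and overlapped at 24 h. With the vector pair exchanged they overlapped at 6 h as well.

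That call depends on the names of the vector pair and on single libraries. It was −0.17 (adjusted p = 0.0682) with the pair exchanged and −0.16 (adjusted p = 0.0752) with both left out, and −0.16 in the other table (adjusted p = 0.0906). With that table's pair exchanged the value was −0.17 (adjusted p = 0.0292, edgeR). With upper-quartile factors it was −0.09 (adjusted p = 0.191), and with library totals alone −0.10 (adjusted p = 0.2). The call was also lost without α1ACT 6 h replicate 1, α1ACT 3 d replicate 3, α1ACT 10 d replicate 3, vector 6 h replicate 2, vector 24 h replicate 1 or 2, or vector 10 d replicate 2 (−0.18 to −0.14, adjusted p = 0.0501 to 0.0778). The sign of the miR-25-3p difference was negative under all 35 alternatives.

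The other 5 arms gave no called difference between the lines. The 5p arm of miR-106b was at 582 ± 61.9 CPM in the α1ACT line and 643 ± 90.3 CPM in the vector line (SD, n = 12 and 11), a log2 fold change of −0.13 ± 0.06 (adjusted p = 0.138, edgeR). Its 3p arm was at 468 ± 111 CPM in the α1ACT line and 501 ± 118 CPM in the vector line (−0.10 ± 0.06, adjusted p = 0.253). The levels of miR-93-5p were 5198 ± 553 CPM in the α1ACT line and 5301 ± 890 CPM in the vector line, a log2 fold change of −0.01 ± 0.06 (adjusted p = 0.968). The scarce arms had wider errors, with −0.19 ± 0.14 for miR-93-3p (adjusted p = 0.421) and +0.16 ± 0.16 for miR-25-5p (adjusted p = 0.545). The median log2 fold change of the 6 arms was −0.12, and that of all 269 entries was 0.00.

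At single times edgeR called 0 of the 6 arms, and the smallest adjusted p of an arm was 0.414 for 6 h, 0.642 for 24 h, 0.354 for 3 d and 0.394 for 10 d. Of all entries it called 0% at 6 h, 0.372% both at 24 h and at 3 d, and 1.49% at 10 d. An unadjusted p under 0.05 was reached by 2 arms at 6 h, by 1 at 3 d and by 0 at 24 h and 10 d, and DESeq2 and limma-voom called 0 arms at each time. Without α1ACT 6 h replicate 2, edgeR called 2 arms at 6 h, miR-25-3p (−0.41, adjusted p = 0.0335) and miR-25-5p (+1.11, adjusted p = 0.0335). Whether the line difference varied with time was tested by the interaction, which called 0% of all entries and none of the 6 arms with edgeR, where the smallest adjusted p of an arm was 1. None of the 6 had an unadjusted p under 0.05, and DESeq2 and limma-voom called none of them.

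**Figure D2:**
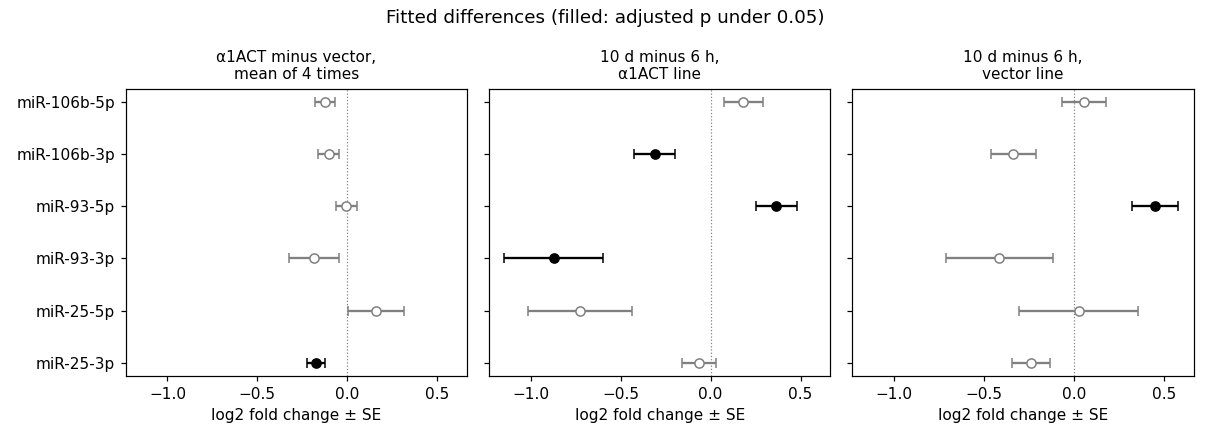
Fitted log2 fold changes (x axis, ± SE) of the 6 arms for α1ACT minus vector over the 4 times, 10 d minus 6 h in the α1ACT line and 10 d minus 6 h in the vector line; filled points have an adjusted p under 0.05. Only miR-25-3p is filled in the comparison of lines, and the arms of miR-93 lie on opposite sides of 0 in the comparison of times.

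The ratio of the arms of miR-106b, which no scaling of libraries can move, turned with time. In the α1ACT line the 5p count was 1.04, 1.09 and 1.14 times the 3p count at 6 h, 1.62, 1.58 and 1.59 times at 24 h, 0.874, 1.06 and 0.98 times at 3 d, and 1.53, 1.50 and 1.57 times at 10 d. In the vector line it was 1.27 and 0.988 times at 6 h, 1.73, 1.39 and 1.38 times at 24 h, 1.24, 0.968 and 1.21 times at 3 d, and 1.74, 1.17 and 1.52 times at 10 d. The α1ACT libraries of 24 h and 10 d were all above those of 6 h and 3 d. The vector libraries spread more, and those of 10 d reached into the range of 6 h and 3 d through replicate 2, one of the doubtful pair.

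Arm ratios were tested with limma over the 76 hairpins with both arms counted. The log2 ratio of miR-106b rose, at 10 d minus 6 h, by +0.49 ± 0.15 in the α1ACT line (adjusted p = 0.0184, limma), where 26.3% of hairpins were called. The vector value was +0.38 ± 0.16 (adjusted p = 0.205), where 7.89% of hairpins were. Without vector 10 d replicate 2 the vector value was +0.54 (adjusted p = 0.037, limma), and with the pair exchanged +0.17 (adjusted p = 0.985). The α1ACT call was lost without α1ACT 6 h replicate 1 or 10 d replicate 3 (+0.46 to +0.48, adjusted p = 0.0662 to 0.0704). Between the lines the ratio differed by −0.02 ± 0.08 (adjusted p = 0.925), and 0% of hairpins were called, with 3 of 76 at an unadjusted p under 0.05.

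The course over the 4 times was tested after the ratios had been seen. The F test gave adjusted p = 0.00124 in the α1ACT line, 9th of the 76 hairpins by p, where 40.8% were called, and adjusted p = 0.0716 in the vector line, where 25% were. The 3 steps in the α1ACT line were +0.55 ± 0.15 for 24 h minus 6 h (adjusted p = 0.0236, 11.8% of hairpins called), −0.72 ± 0.15 for 3 d minus 24 h (adjusted p = 0.00201, 15.8%) and +0.66 ± 0.15 for 10 d minus 3 d (adjusted p = 0.00432, 26.3%, limma). The vector values were +0.41 ± 0.16 for 24 h minus 6 h (adjusted p = 0.242, 3.95%), −0.40 ± 0.15 for 3 d minus 24 h (adjusted p = 0.0689, 17.1%) and +0.36 ± 0.15 for 10 d minus 3 d (adjusted p = 0.115, 9.21%). Without α1ACT 6 h replicate 1 or α1ACT 24 h replicate 1 or 3 the first α1ACT step was not called (+0.52 to +0.55, adjusted p = 0.0572 to 0.0864), nor with the vector pair exchanged (adjusted p = 0.0616) or the Chimira counts (adjusted p = 0.0561). With both vector libraries left out the vector F test was called (adjusted p = 0.0314, limma), and with the pair exchanged it was not (adjusted p = 0.382). The interaction of line and time in the ratio had adjusted p = 0.829, so a difference between the lines in this course was not shown.

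For miR-93 the same ratio was 385 ± 42.3 at 10 d and 168 ± 45.7 at 6 h in the α1ACT line, and 295 ± 77.4 at 10 d and 158 ± 41.7 at 6 h in the vector line (SD, n = 3, vector 6 h n = 2). The log2 ratio differed by +1.21 ± 0.36 between 10 d and 6 h in the α1ACT line (adjusted p = 0.0188) and by +0.90 ± 0.41 in the vector line (adjusted p = 0.218, limma). With the vector pair exchanged the vector value was +0.22 (adjusted p = 0.985), and the α1ACT call was lost without α1ACT 6 h replicate 1 or 3 or α1ACT 10 d replicate 1 or 3 (+1.09 to +1.18, adjusted p = 0.0618 to 0.0704). For miR-25, whose 3p arm dominates, the 5p to 3p ratio differed by −0.53 ± 0.37 in the α1ACT line (adjusted p = 0.37, limma). In the vector line it differed by +0.25 ± 0.41 (adjusted p = 0.869), and by −0.17 with the pair exchanged (adjusted p = 0.985). Without α1ACT 6 h replicate 2 the α1ACT value was −1.12 (adjusted p = 0.00722, limma). Without replicate 1 or 3 of that group it was −0.27 or −0.21. The step from 6 h to 24 h was tested after seeing the data. There the miR-25 ratio differed by −1.15 ± 0.37 in the α1ACT line (adjusted p = 0.0475, limma, 11.8% of hairpins called). Its vector value was −0.20 ± 0.41 (adjusted p = 0.832). No other step or F test over time was called for miR-93 or miR-25. The largest called shifts at 10 d minus 6 h elsewhere were those of miR-23b (−5.39) and miR-137 (−3.54) downward and of miR-330 (+1.51) and miR-674 (+1.44) upward in the α1ACT line. Those of the vector line were miR-27a (−1.55) and miR-212 (−1.19) downward and of let-7d (+1.26) and miR-423 (+0.88) upward.

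**Figure D3:**
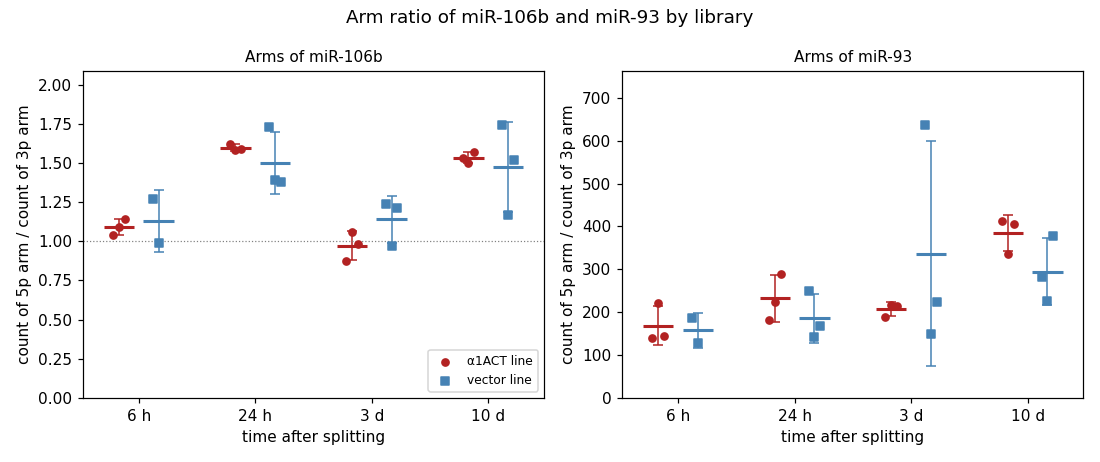
Ratio of the 5p count to the 3p count of miR-106b (left) and miR-93 (right) in each library by time after splitting, α1ACT circles left of vector squares, with group means and ±1 SD. The group means of the miR-106b ratio lie near 1 at 6 h and 3 d and near 1.5 at 24 h and 10 d in both lines. The vector libraries of 10 d (down to 1.17) overlap those of 6 h (up to 1.27) and 3 d (up to 1.24). The highest miR-93 ratio, 636 at vector 3 d, rests on 4 counts of the 3p arm.

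Within its seed families the cluster supplied most of the reads. Of the counts of the 5 entries with the seed of miR-93-5p, that arm held 83.5% to 89.7% of a library and miR-106b-5p 8.13% to 13.4%, with 1.3% to 2.49% from miR-17-5p, 0.498% to 1.25% from miR-20a-5p and at most 0.00647% from miR-20b-5p. Of the 5 entries with the seed of miR-25-3p, that arm held 73.1% to 86.9% and miR-92a-3p 12.9% to 26.8%. The other 3, miR-92b-3p, miR-32-5p and miR-363-3p, each stayed at or below 0.277%. The summed level of the miR-93-5p seed was 5275 ± 240 CPM at 6 h, 5765 ± 332 CPM at 24 h, 6062 ± 285 CPM at 3 d and 6672 ± 113 CPM at 10 d in the α1ACT line. For the vector line it was 5332 ± 817 CPM at 6 h, 5525 ± 788 CPM at 24 h, 6322 ± 659 CPM at 3 d and 7024 ± 642 CPM at 10 d (SD, n = 3, vector 6 h n = 2). With the pair exchanged it was 6420 ± 1530 CPM at 10 d and 6240 ± 462 CPM at 6 h in the vector line.

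The balance of the miR-25-3p seed shifted with miR-92a-3p. That sequence has 2 copies in GRCr8, so its reads cannot be credited to the miR-17-92 cluster alone. The 2 arms hold nearly all counts of the family, so their shares are nearly complementary. In α1ACT libraries miR-92a-3p held 1140, 1066 and 1017 CPM at 10 d, against 2285, 1967 and 2178 CPM at 6 h. In vector libraries it held 1022, 1492 and 1194 CPM at 10 d, against 2334 and 2265 CPM at 6 h. Its 10 d libraries were below its 6 h libraries in both lines, with no overlap. By edgeR its log2 fold change at 10 d minus 6 h was −0.996 in the α1ACT line (adjusted p = 4.16e-07) and −0.896 in the vector line (adjusted p = 1.66e-05). With the vector pair exchanged, vector 10 d and 6 h overlapped, and the vector value was −0.358 (adjusted p = 0.993, edgeR). With both left out, against the 1 vector library then left at 6 h, it was −1.2. For miR-25-3p the same contrast gave −0.06 ± 0.09 in the α1ACT line (adjusted p = 0.649) and −0.24 ± 0.11 in the vector line (adjusted p = 0.145). The share of miR-25-3p in the family was 75.7% ± 3.54 at 6 h, 82.0% ± 0.569 at 24 h, then 76.6% ± 2.39 at 3 d and 85.7% ± 0.702 at 10 d in the α1ACT line. It was 78.2% ± 1.13 at 6 h, 81.3% ± 0.950 at 24 h, then 76.5% ± 2.61 at 3 d and 85.1% ± 2.02 at 10 d in the vector line (SD, n = 3, vector 6 h n = 2). With the pair exchanged the vector shares were 83.8% ± 4.2 at 10 d and 80.2% ± 3.89 at 6 h.

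**Figure D4:**
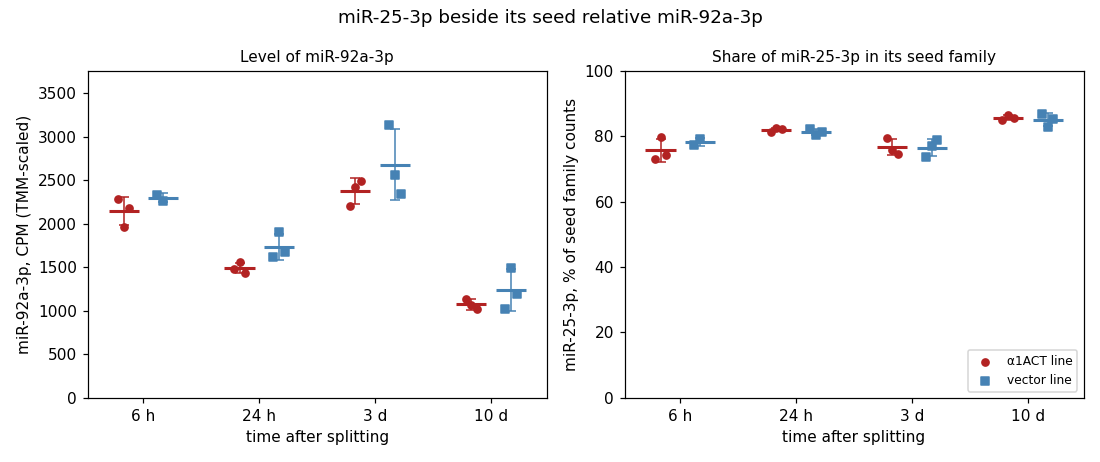
Level of miR-92a-3p in CPM (left) and share of miR-25-3p in the counts of the 5 entries with its seed, in percent (right), for each library by time after splitting, α1ACT circles left of vector squares, with group means and ±1 SD. The share is highest at 10 d, where miR-92a-3p is lowest, and lies between 73.1% and 86.9% throughout.

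The paralogous clusters miR-17-92 and miR-106a-363 had 15 entries, of which 10 were tested. Between the lines edgeR called 0 of them, where 12.6% of all 269 entries were called. The log2 fold changes of all 10 were negative, and their median was −0.15, against 0.00 over all 269 entries. The 10 include both arms of some hairpins, so their signs are not independent of each other. By edgeR 1 of the 10 had an unadjusted p under 0.05, DESeq2 called 1 and limma-voom called 0, and both times the 1 was miR-92a-3p. The values were −0.05 for miR-17-5p (118 CPM on average), −0.13 for miR-18a-5p (20.01 CPM), −0.42 for miR-19a-3p (22.7 CPM), −0.22 for miR-19b-3p (154 CPM), −0.12 for miR-20a-5p (49.6 CPM) and −0.17 for miR-92a-3p (1860 CPM). The passenger arms miR-17-1-3p (18.3 CPM) and miR-92a-1-5p (55.4 CPM) had −0.01 and −0.11. At 10 d minus 6 h 1 of the 10 was called in each line, miR-92a-3p. Of all entries, 27.1% were called there in the α1ACT line and 11.9% in the vector line. The vector count at 10 d minus 6 h was 0 with the vector pair exchanged or with the Chimira counts. At 3 d minus 24 h 1 of the 10 was called in the α1ACT line (22.3% of all entries). The vector line had 2 (23.8%). There miR-92a-3p rose by +0.668 in the α1ACT line (adjusted p = 0.000198) and +0.625 in the vector line (adjusted p = 0.000319, edgeR). The other was miR-17-5p in the vector line (+0.417, adjusted p = 0.0311). Like miR-106b-3p, miR-92a-3p had its highest mean at 3 d in both lines. At 10 d minus 3 d 5 of the 10 were called in the α1ACT line, where 32.7% of all entries were (miR-18a-5p, miR-20a-5p, miR-92a-1-5p and miR-92a-3p lower, the scarce miR-19a-5p higher) and 2 in the vector line, where 25.3% were (miR-17-5p and miR-92a-3p lower). The α1ACT count was 1 without α1ACT 3 d replicate 1, 2 without α1ACT 10 d replicate 3 or with no filter, 3 without α1ACT 3 d replicate 2 or with upper-quartile factors, and 4 to 6 otherwise. The vector count was 1 without vector 3 d replicate 3 or with upper-quartile factors, and 2 or 3 otherwise.

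The levels of the arms of the cluster were correlated to different degrees across the libraries. Whether the hairpins came from 1 transcript in these cells was not tested. Over the 23 libraries the log2 levels of miR-106b-3p and miR-25-3p had Pearson's r = 0.783 (Spearman's rho 0.78), and those of miR-106b-5p and miR-25-3p r = 0.577 (rho 0.547). The 5p and 3p arms of miR-106b had r = 0.395 (rho 0.352). Those of miR-93 had r = −0.496 (rho −0.526), and those of miR-25 r = 0.0278 (rho 0.103). The 2 most abundant arms, miR-93-5p and miR-25-3p, had r = −0.215 (rho −0.263), and the 2 arms with the same seed, miR-106b-5p and miR-93-5p, r = 0.241 (rho 0.0939). These values describe libraries that share groups, scaling and depth, and the scarce arms rest on few counts.

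Each arm had a different set of entries most like it over the 23 libraries, by Pearson's r of log2 CPM among the tested entries outside the cluster. For miR-106b-3p these were miR-92a-3p (0.831), miR-151-3p (0.827), miR-140-3p (0.825), miR-378a-3p (0.81) and miR-99b-3p (0.805). For miR-106b-5p they were miR-130b-3p (0.752), miR-203a-3p (0.744), miR-30e-5p (0.7), miR-17-5p (0.687) and miR-99b-3p (0.665). Those of miR-25-3p were miR-195-3p (0.859), miR-203a-3p (0.846), miR-99b-3p (0.796), miR-378a-3p (0.774) and miR-30d-5p (0.688). So miR-99b-3p was among the 5 of all 3 of these arms.

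The course of miR-93-5p was most like those of miR-130a-3p (0.805), miR-497-5p (0.778), miR-195-5p (0.775), miR-344a-3p (0.77) and miR-1843a-5p (0.732). Its scarce partner miR-93-3p was nearest to miR-375-5p (0.794), miR-18a-3p (0.731), miR-345-5p (0.72), miR-361-5p (0.682) and miR-1224 (0.656). For miR-25-5p the list was miR-423-5p (0.917), let-7e-3p (0.829), miR-320-3p (0.818), miR-191a-5p (0.745) and miR-125b-1-3p (0.743). The first of these, miR-423-5p, held 1834, 1079 and 1686 CPM in the α1ACT libraries of 6 h, so it was low in the same replicate as miR-25-5p.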

How the data were processed

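Small RNA was purified as a miRNA-enriched fraction and sequenced with an Illumina protocol, per the labels' protocols. The authors deposited raw read counts per mature microRNA in 2 tables, whose names point to sRNAbench (413 entries, used here) and Chimira (627 entries, an alternative). The tool edgeR is named, per the submitters' processing notes, and the aligner, annotation release, build and versions were not given in the sources used here. By the times and numbers in the titles, columns called WT were matched to the α1ACT line and those called control to the vector line, which is an assumption. Each table has 12 other columns of values, which were not used. An entry with no name (1 row, 0% of counts) was left out.

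Counts were fitted with edgeR 4.0.16 in R 4.3.3 (filterByExpr, TMM, 8 group means, robust quasi-likelihood), with Benjamini-Hochberg adjustment over 269 entries and a biological coefficient of variation of 16.1%. Arm ratios, log2 of counts plus 0.5, were fitted with limma 3.58.1. SEs were derived from each log2 fold change with its F value. Correlations used log2 CPM with a prior count of 2. DESeq2 1.42.0, limma-voom, other scalings, filters and the Chimira counts were alternatives, as were a replicate block and leaving out libraries. The Chimira counts with the vector pair exchanged and the arm ratio tests between neighbouring times and over the 4 times were chosen after seeing the data. The line difference over the 4 times was tested on simulated data, for counts and for arm ratios. The tests between times, at single times and of the interaction were not. Depth ran from 448557 to 5070120 counts a library, reads carry no molecular identifiers, and replicate pairs differed beyond counting noise (chi-square per degree of freedom 21.4 to 214).

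Further microRNAs are named by rule: those sharing a member's seed, members of the paralogous clusters at 10 CPM or more on average, the 5 entries most like each member, neighbours in rank, and the 2 most shifted arm ratios in each direction. The members, lists and alternatives were chosen with earlier results of these data known. Outside the rule, miR-19a-5p was named after its values were seen.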

Additional observations from a re-analysis of the deposited data

How the results depend on the processing

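The depth limits what can be said of the passenger arms, which rest on 4 to 98 counts a library. With a biological coefficient of variation of 16.1% and 2 or 3 libraries a group, a p above the threshold does not show that an arm stayed level. Under 29 to 36 alternatives a result, 2295 values of the arms and their ratios were computed. Of these, 2038 kept their side of the threshold and, except for F tests, which have none, their sign. A further 129 lost a call and 82 gained one without a change of sign. The sign changed in 46, whether or not a call changed too. The cause of each change was not tested.

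The values here are log2 fold changes. For the line difference of miR-93-5p (−0.01), the sign was positive with upper-quartile factors (0.0826), library totals (0.0625), a filter of 10 CPM in 3 libraries (0.000132), limma-voom (0.00103) and the Chimira counts with the vector pair exchanged (0.00296), and without 1 library it ran from −0.0582 to 0.0366. That of miR-25-3p (−0.18) was not called with the Chimira counts (−0.16), upper-quartile factors (−0.0874), library totals (−0.105), the pair exchanged (−0.167) or both left out (−0.164), and ran from −0.203 to −0.143 without 1 library. Of all entries, 34 were called between the lines, against 19 with the Chimira counts, 18 with the pair exchanged, 16 with both left out and 16 to 40 without 1 library. At 10 d minus 6 h in the vector line 32 were called, against 0 by edgeR with the Chimira counts (8 at an unadjusted p under 0.05) or with the pair exchanged (4 at an unadjusted p under 0.05), 11 with both left out and 60 with upper-quartile factors.

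The other values are 10 d minus 6 h. For miR-106b-3p in the α1ACT line the call was lost with the Chimira counts under both namings (−0.29), RLE factors or DESeq2 (−0.296), library totals (−0.335), no filter (−0.298), the 10 CPM filter (−0.288) and the pair exchanged (−0.31). Without 1 library it ran from −0.4 to −0.236, with the call lost for 11 of the 23. In the vector line it was called with library totals (−0.442) and the 10 CPM filter (−0.389), but was −0.0308 with the pair exchanged, −0.102 with the Chimira counts and −0.161 with upper-quartile factors, and ran from −0.54 to −0.223 without 1 library. For miR-93-5p in the α1ACT line the call was lost with upper-quartile factors (0.314) and the pair exchanged (0.364), over a range of 0.324 to 0.392 without 1 library. In the vector line it was −0.0371 with the Chimira counts, 0.338 with library totals, 0.39 with the 2 groups fitted alone, 0.0366 with the pair exchanged and 0.197 with both left out, and ran from 0.211 to 0.59, with the call lost without vector 6 h replicate 2, vector 10 d replicate 1 or α1ACT 6 h replicate 3. For miR-93-3p in the α1ACT line the range was −1.05 to −0.797.

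For miR-25-5p in the α1ACT line the Chimira counts gave a call under their own naming (−0.782) and with the pair exchanged (−0.786), and the range without 1 library was −1.07 to −0.542. In the vector line its value (+0.03) was negative with the Chimira counts (−0.14, or −0.0441 exchanged), library totals (−0.084), the 10 CPM filter (−0.0336), DESeq2 (−0.000318), 2 groups alone (−0.0317), the pair exchanged (−0.19) and both left out (−0.289), and ran from −0.179 to 0.148. That of miR-106b-5p in the vector line (+0.06) was −0.0537 with library totals, −0.00381 with the 10 CPM filter, −0.00204 with 2 groups alone and −0.0164 with both left out, and ran from −0.0448 to 0.11. For miR-25-3p the vector value was called with the 10 CPM filter (−0.291), but was −0.025 with the pair exchanged, −0.0674 with upper-quartile factors and −0.0941 with the Chimira counts, and ran from −0.331 to −0.198 without 1 library, and the α1ACT value ran from −0.17 to 0.0481. The miR-106b arm ratio in the α1ACT line was not called with the Chimira counts (0.491) and ran from 0.458 to 0.528 without 1 library, against 0.198 to 0.559 in the vector line and −0.0688 to 0.0214 for the line difference. At 10 d minus 3 d, upper-quartile factors gave 0.0141 for miR-106b-5p in the α1ACT line and 0.0951 for miR-93-3p in the vector line, where leaving out 1 library gave −0.362 to 0.143. The α1ACT call of miR-93-3p at that step was lost without α1ACT 6 h replicate 1, 24 h replicate 2 or 3, 3 d replicate 1, 2 or 3, 10 d replicate 1, 2 or 3, vector 6 h replicate 1 or 2, or vector 10 d replicate 1.

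Counts of called arms moved as well. The α1ACT count of 3 at 10 d minus 6 h was 0 without α1ACT 6 h replicate 1 or 10 d replicate 3 and 1 without 6 h replicate 3 or 10 d replicate 1. The vector count of 1 was 0 without vector 6 h replicate 2, vector 10 d replicate 1 or α1ACT 6 h replicate 3, 2 without vector 6 h replicate 1 or 10 d replicate 2, and 3 with the 10 CPM filter. The counts of 3 at 10 d minus 3 d were 1 in both lines with the pair exchanged. The α1ACT F test called 5 arms without α1ACT 6 h replicate 2 or vector 3 d replicate 1, and 4 without α1ACT 24 h replicate 1, vector 24 h replicate 3, vector 3 d replicate 2 or vector 10 d replicate 1.

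Replicate numbers were not taken to pair the samples. Deviations of same-numbered libraries had a mean correlation of 0.0181 over 77 pairs (−0.683 to 0.734). Those of libraries with other numbers had a mean of −0.0088 over 154 pairs. A mean near 0 does not exclude pairing within some groups. With a replicate block, 38 entries in place of 34 were called between the lines, miR-25-3p had −0.17 (adjusted p = 0.0112, edgeR), and the F test over time called 6 arms in place of 2 in the α1ACT line and 4 in place of 3 in the vector line. The vector arm ratio of miR-106b at 3 d minus 24 h was then called (−0.399, adjusted p = 0.0478, limma). No other call of an arm changed with it.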
